A study of Mus musculus with 20 samples.

Results

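Cyclophilin D and the proteins named with it at the mitochondrial membranes were followed through 5 genes: Ppif, which encodes cyclophilin D, the VDAC genes Vdac1, Vdac2 and Vdac3, and Tspo. These are 5 of the 12394 genes named on the array. A probe set is a group of array features designed to be read together for a transcript. It was taken when the platform annotation gives it the symbol of 1 of these genes and no other. This rule found 12 of the 22690 probe sets on the array: 2 for Ppif, 5 for Vdac1, 1 each for Vdac2 and Vdac3, and 3 for Tspo. Of the 12, 11 were bright enough to enter the fit, and the 1 left out belongs to Vdac1. Among the 12, those with names ending in _x_at, and 1416175_a_at of Vdac3, can bind several transcripts. The 5 genes were chosen by their levels in these same 20 mice, with earlier results known, so their group differences are given as a description with no test.

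Ppif protein is a peptidyl-prolyl isomerase of the mitochondrial matrix and a regulator of the permeability transition, the opening of a large pore that collapses the inner membrane potential and lets the matrix swell. The VDAC proteins are the abundant channels of the outer membrane, through which ATP, ADP and other metabolites pass, and hexokinases dock on them. Tspo is an outer membrane protein that binds cholesterol and porphyrins and is plentiful in steroid-forming cells and in macrophages. VDAC and Tspo were parts of early models of the pore, and later models place it in the adenine nucleotide carriers or in ATP synthase. Endurance training is known to raise the mitochondrial content of skeletal muscle.

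The samples were total RNA from skeletal muscle of 20 mice, with 5 in each of 4 groups. WTUT and WTT are wild-type mice, untrained and trained, and TGUT and TGT are transgenic mice, untrained and trained, in a series titled for endurance training in animals that over-express MHC-I. The labels do not spell out MHC-I, and the transgene construct, its promoter, the muscle, the sex, the age and the training protocol are not stated in the sources used here. Groups come from the source names and titles, because a free-text description calls all 20 samples transgenic and trained. Each number in a title is taken as 1 mouse, and nothing says more about separate animals, so every error given here measures the spread between these samples.

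The 12 listed muscle fibre markers were all bright enough to be tested, with summed intensities from 154280 to 168085 per array. Arrays held 21868 to 22686 values with median intensities of 157 to 175, and the log2 ratio of Gapdh signal at its 3' end to that at its 5' end, which reflects RNA integrity, lay between -0.06 and 0.10. The arrays of WTT mouse wtt-137 and TGT mouse TGT-133 stood apart, with 822 and 386 empty cells, more than any other array. The transgenic groups differed from wild-type mice in slow fibre genes: 6 of 7 fell, averaged over training, with a median log2 difference of -1.44 over the list. Myh7, which encodes slow myosin heavy chain, fell by 1.27 on the log2 scale (SE 0.26, limma adjusted p = 0.0201). In whole muscle, fewer cells of a type and less RNA per cell cannot be told apart.

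RefSeq promoter sequences of build GRCm38.p6 were matched for 2 of the 5 genes, Ppif and Vdac1. No promoter sequence of the other members was available, so these 2 are shown for that reason and not for their levels. Each sequence is the 250 bases before an annotated start, on the + strand of the genome, which is the strand of both genes. The stretches are chr14:25693920-25694169 for Ppif and chr11:52360601-52360850 for Vdac1. The annotated Ppif gene begins at chr14:25693574, so the Ppif stretch lies inside the gene, before a start further along. Capitals mark matches, on either strand, to letters bound by factors of mitochondrial or housekeeping genes: CCGGAAG for GABP, GGGCGG for SP1, AAGGTCA for ERR, the palindromic NRF1 motif with an open centre, and the CCAAT box.
Ppif: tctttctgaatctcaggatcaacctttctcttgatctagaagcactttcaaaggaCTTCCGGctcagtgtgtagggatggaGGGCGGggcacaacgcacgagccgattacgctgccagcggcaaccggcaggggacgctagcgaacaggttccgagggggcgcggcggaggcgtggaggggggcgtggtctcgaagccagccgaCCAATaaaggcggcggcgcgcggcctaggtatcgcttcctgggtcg
Vdac1: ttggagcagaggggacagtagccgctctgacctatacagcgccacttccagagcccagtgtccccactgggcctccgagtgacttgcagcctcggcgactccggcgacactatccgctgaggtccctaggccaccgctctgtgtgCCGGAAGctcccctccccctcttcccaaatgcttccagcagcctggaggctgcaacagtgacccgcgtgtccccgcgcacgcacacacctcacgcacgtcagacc

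The Ppif stretch held 3 matches. The GABP letters lie on the - strand 195 bases before the start, the SP1 letters on the + strand at 169 bases, and a CCAAT box on the + strand at 46 bases. The Vdac1 stretch held 1 match, the GABP letters 105 bases before the start. A second annotated Vdac1 start, preceded by chr11:52361347-52361596, had the ERR letters at 106 bases and the SP1 letters 3 times, the farthest at 247 bases and the next at 179 bases. Over the 32851 promoters of the table, windows of the same length held the GABP letters in 6.91%, the SP1 letters in 32.7%, the ERR letters in 4.08%, the NRF1 letters in 3.74% and CCAAT in 33.8%. The searched motifs do not overlap one another in these stretches, and a match is a description of letters, not of binding.

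Ppif was low in untrained transgenic mice and highest on average in trained transgenic mice. Values are the deposited linear intensities, which order mice within a probe set but not genes against each other. On probe set 1416940_at, the WTUT mice had Ppif intensities of 451, 607, 643, 622 and 867. The WTT mice had 726, 769, 775, 744 and 613, a narrow range inside that of the untrained wild-type mice. The TGUT mice had 378, 351, 540.3, 442 and 546, and the TGT mice 1055, 706, 606, 928 and 855. Every trained transgenic mouse lay above every untrained one, whereas the trained and untrained wild-type mice overlapped. In the untrained state, 4 of the 5 wild-type mice lay above every transgenic mouse, and the fifth, WTUT-130, lay among them.

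Mean Ppif intensity was 638 ± 149 in WTUT mice, 725 ± 65.6 in WTT mice, 451 ± 90.0 in TGUT mice and 829.9 ± 178 (SD, n = 5 each) in TGT mice. The order from high to low was therefore TGT, WTT, WTUT, TGUT. Only the step from WTUT to TGUT, 0.44 on the log2 scale, exceeded the pooled spread of its neighbours, which was 0.28. The steps from TGT to WTT and from WTT to WTUT, 0.16 and 0.19, were smaller than the spreads of 0.23 beside each of them. Across the 20 mice the highest Ppif intensity was 3.01 times the lowest.

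**Figure D1:**
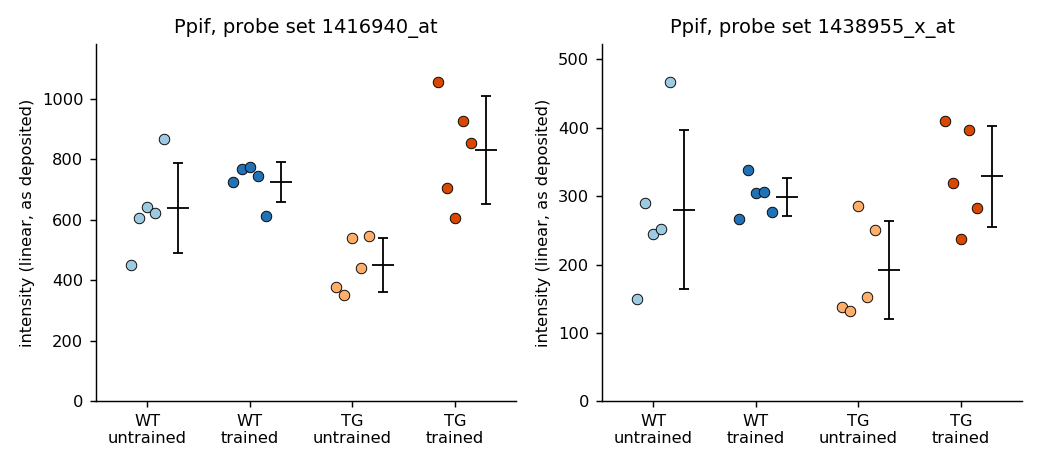
Ppif intensity (linear, as deposited) of each mouse on 2 probe sets, by group, with the group mean and SD (bars, n = 5) to the right of the points. On 1416940_at the TGT mice, at 606 to 1055, all sit above the TGUT mice, at 351 to 546, while the 2 wild-type groups overlap.

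Differences were fitted with limma on log2 of the intensity plus a constant of 66.7, with the 4 group means in 1 model over 13576 probe sets. On this scale Ppif was 0.79 ± 0.15 (SE) higher after training in transgenic mice, with a 95% interval of 0.47 to 1.10, or 1.72-fold. The ratio of the mean intensities was 1.84. In wild-type mice the Ppif difference was 0.19 ± 0.15, with an interval of -0.12 to 0.50 that includes 0. Averaged over genotypes it was 0.49 ± 0.11, or 1.40-fold. The transgenic mice were lower in the untrained state, by a log2 difference of -0.44 ± 0.15, and in the trained state the difference was 0.16 ± 0.15. Averaged over training the transgenic mice differed by -0.14 ± 0.11, with an interval from -0.36 to 0.08. The excess of the transgenic over the wild-type training difference in Ppif was 0.59 ± 0.21, with an interval of 0.15 to 1.04. That interval is for 1 probe set alone, and the excess did not pass the adjusted threshold over all probe sets.

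In the fit without covariates, Ppif 1416940_at was the only member probe set past an adjusted p of 0.05, in training averaged over genotypes and in training in transgenic mice. These counts, 1 of 11 in each, follow from how the genes were chosen and are set beside the background only. Averaged over genotypes, training changed 4.99% of all tested probe sets, with 2.41% higher and 2.59% lower. In transgenic mice it changed 0.309%, with 0.133% higher, and 1.15% of the probe sets measured in all mice of both groups had every trained transgenic mouse above every untrained one. In the other 5 contrasts 0 of the 11 member probe sets passed. The share of all probe sets called was 1.23% for the transgene averaged over training, 0.11% for the transgene in untrained mice and 0.0516% for the transgene in trained mice. It was 0% both for training in wild-type mice and for the interaction, where limma gave 1069 and 395 of the 13576 probe sets an unadjusted p under 0.05. The 2 genotypes' training differences share no mice, but each also enters the average and the interaction.

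Whether the Ppif difference in transgenic mice passed the threshold depended on single arrays and settings, while the difference kept its sign in all of them. Over the other settings tried the difference ran from 0.47, with mitochondrial content as a covariate, to 1.01, with array weights. Leaving out each of the 20 arrays in turn gave 0.70 to 0.88, and it was past the threshold in 9 of these fits. It was not past it without WTUT-135, WTUT-136, WTT-129, wtt-134, TGUT-131, TGUT-139, TGUT-147, TGT-128, TGT-132, TGT-140 or TGT-143. It was also not past it after median centring, without a filter, without probe sets that can bind several transcripts, or in a fit to the 2 transgenic groups alone, where the difference was 0.78 to 0.79. Calls over all probe sets in transgenic mice changed too, from 42 to 2 without TGUT-139 and to 764 without TGUT-145. The Ppif difference averaged over genotypes was 0.44 to 0.54 in the leave-one-out fits. It was past the threshold in 20 of these 20 fits and under 12 of 14 other settings. Since Ppif was chosen on these values, none of this is a test of it.

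A second Ppif probe set, 1438955_x_at, ordered the groups the same way with wider spread. Its mean intensity was 280.4 ± 116 in WTUT mice, 298 ± 28.1 in WTT mice, 192 ± 71.5 in TGUT mice and 329 ± 74.1 in TGT mice (SD, n = 5 each). TGUT mice ran from 131.8 to 286 and TGT mice from 237 to 410.0, so these groups overlapped, with 3 trained mice above every untrained one. The log2 difference after training in transgenic mice was 0.64 ± 0.20 and that in wild-type mice 0.13 ± 0.20. After group means were taken out, the 2 Ppif probe sets correlated over the 20 arrays with r = 0.90 and rho = 0.85. Both read the same RNA, so this is agreement between measurements of 1 sample, not between mice.

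Mitochondrial genes moved with Ppif. Of 12 listed genes of mitochondrial content, 11 were tested and 5 rose with training averaged over genotypes, with a median log2 difference of 0.14 over the list. Their summed intensity ran from 44106 to 50187 in WTUT mice, 48375 to 53668 in WTT mice, 42047 to 48324 in TGUT mice and 48107 to 52211 in TGT mice. Citrate synthase, Cs, rose by 0.14 ± 0.04 (limma adjusted p = 0.0341). Within groups, Ppif and the list's score correlated over the 20 arrays with r = 0.67 and rho = 0.69, and with r = 0.71 without the 2 arrays farthest out. This was not particular to Ppif: Vdac1 was at r = 0.63 with the same score, Vdac2 at 0.46, Vdac3 at 0.43 and Tspo at 0.16. With that score as a covariate, a fit chosen after the data were seen, the Ppif training difference was 0.47 ± 0.15 in transgenic mice and 0.23 ± 0.11 averaged over genotypes. Neither passed the threshold there, and that fit called 0 of all probe sets for either contrast. The array's median intensity also moved with Ppif within groups, at r = -0.55 (rho = -0.54), or -0.51 without the 2 arrays farthest out, and the Gapdh ratio at r = -0.29 (rho = -0.31). What part mitochondrial content or these array measures have in the Ppif difference was not tested.

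The 3 VDAC genes were bright and nearly level across the 4 groups. Vdac1, the most studied isoform, had mean intensities on 1415998_at of 5921 ± 78.9 in WTUT mice, 5768 ± 334 in WTT mice, 5895 ± 239.6 in TGUT mice and 6053 ± 208 in TGT mice (SD, n = 5 each). The groups ran from 5841 to 6042, from 5197 to 6038, from 5614 to 6090.4 and from 5755 to 6261, so all 4 overlapped. The highest of the 20 mice had 1.20 times the intensity of the lowest. The within-group SD of Vdac1 was 0.06 on the log2 scale, and only 1.69% of all tested probe sets had a smaller one.

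Training averaged over genotypes gave Vdac1 a log2 difference of -0.00047 ± 0.030, with a fold interval of 0.957 to 1.04. The difference after training was -0.039 ± 0.042 in wild-type mice and 0.038 ± 0.042 in transgenic mice. The transgene gave -0.0072 ± 0.042 in untrained and 0.070 ± 0.042 in trained mice. The order was TGT, WTUT, TGUT, WTT, and no step between neighbours exceeded its spread.

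The other Vdac1 probe sets gave intervals that include 0 in nearly every contrast. On 1436992_x_at, 1437192_x_at and 1437947_x_at the averaged training differences were -0.022 ± 0.032, 0.021 ± 0.036 and 0.0012 ± 0.035. The exceptions were the transgene in trained mice on 1436992_x_at, at 0.10 with an interval of 0.0022 to 0.19, and on 1437947_x_at, at 0.11 with an interval of 0.0061 to 0.22. On 1437947_x_at, 4 of 5 trained transgenic mice lay above every trained wild-type mouse. Mouse WTT-144 was the lowest mouse on 1415998_at, 1436992_x_at and 1437947_x_at alike, at 5197, 4811 and 3969.6. The probe set 1437452_x_at stayed between 10.7 and 22.8 in all mice, below the filter, and was not tested.

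Vdac2, the isoform known to hold Bak at the outer membrane, had mean intensities on 1415990_at of 3895 ± 341 in WTUT mice, 4007 ± 277 in WTT mice, 3763 ± 222 in TGUT mice and 3749 ± 231 in TGT mice (SD, n = 5 each). Its 20 values lay between 3371 and 4407 and all groups overlapped. Training gave Vdac2 a log2 difference of 0.042 ± 0.065 in wild-type mice and -0.0057 ± 0.065 in transgenic mice. The transgene averaged over training gave -0.070 ± 0.046, with a fold interval of 0.891 to 1.02. Array measures moved with Vdac2: within groups it correlated over the 20 arrays with the array's median intensity at r = -0.83 (rho = -0.77) and with the Gapdh ratio at r = -0.66 (rho = -0.62). Without the 2 arrays farthest out these were -0.76 and -0.56. Their part in the Vdac2 values was not tested.

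Vdac3, the third channel isoform, had mean intensities on 1416175_a_at of 3675 ± 173 in WTUT mice, 3763 ± 108 in WTT mice, 3712 ± 316 in TGUT mice and 3731 ± 286 in TGT mice (SD, n = 5 each). Its lowest and highest mice, TGUT-139 at 3246 and TGUT-145 at 4124, belong to the same group, which therefore spans all the others. The averaged training difference was 0.021 ± 0.043 and the averaged transgene difference -0.0020 ± 0.043, with fold intervals of 0.953 to 1.08 and 0.938 to 1.06. No step between neighbouring groups exceeded its spread for Vdac2 or Vdac3. Array measures moved with Vdac3 too, at r = -0.62 (rho = -0.47) for the array's median intensity and r = -0.56 (rho = -0.46) for the Gapdh ratio, with their part not tested.

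**Figure D2:**
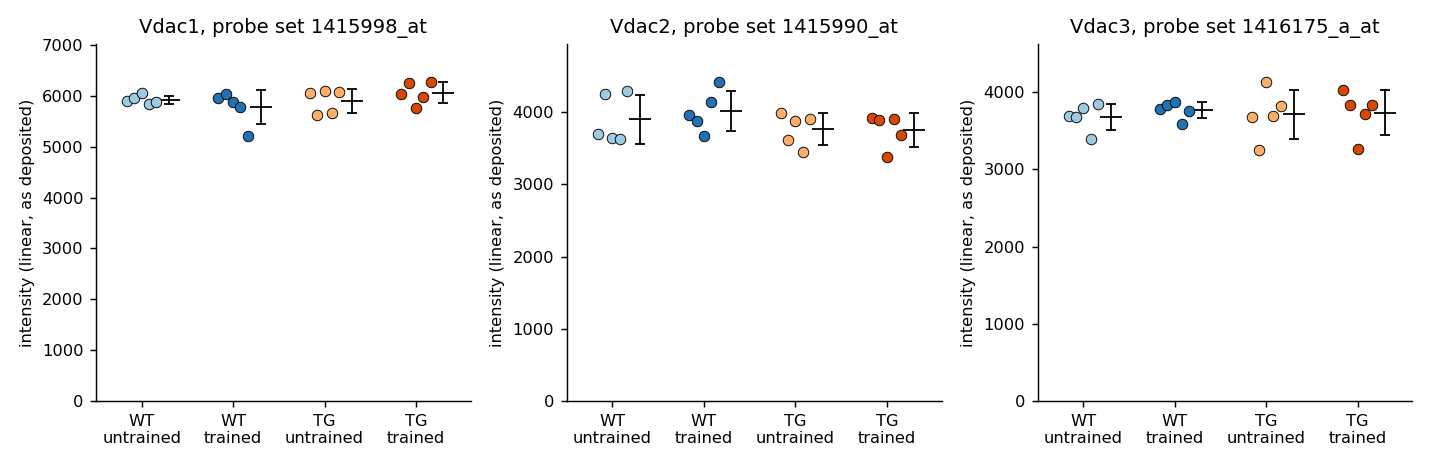
Intensity (linear, as deposited) of Vdac1, Vdac2 and Vdac3 in each mouse, 1 probe set per panel with its own axis from 0, with the group mean and SD (bars, n = 5). The 4 groups overlap in every panel, and Vdac1 runs only from 5197 to 6261 over the 20 mice.

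**Figure D3:**
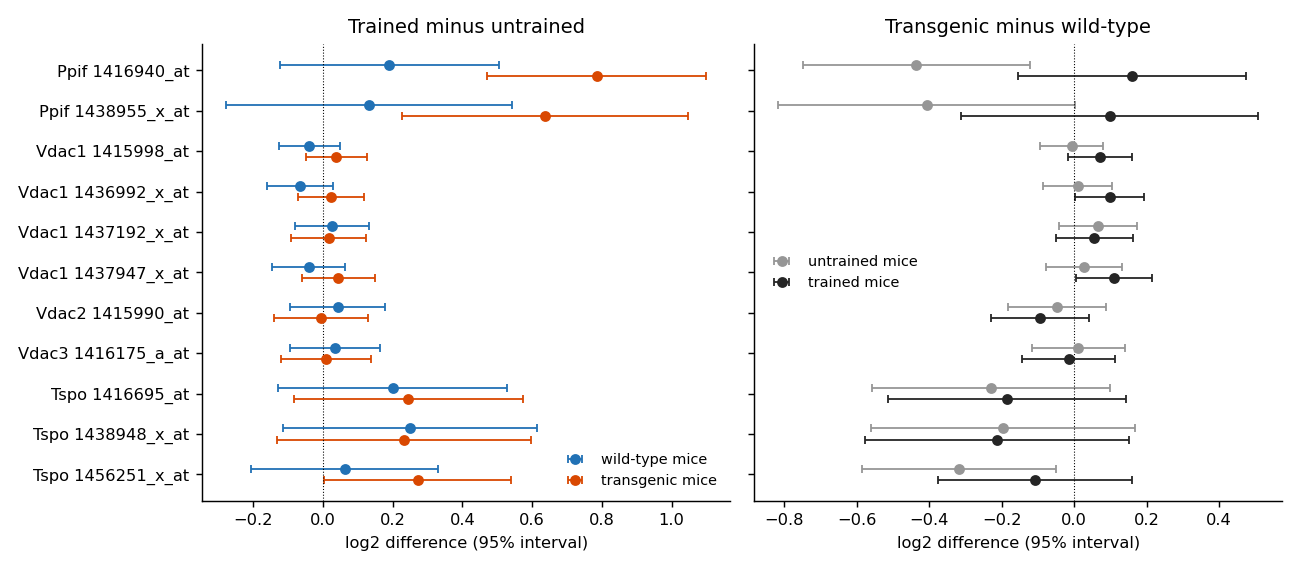
Fitted log2 differences of the 11 tested member probe sets with 95% intervals, trained minus untrained by genotype (left) and transgenic minus wild-type by training state (right). The Ppif points reach 0.79 and 0.64 for training in transgenic mice, the VDAC points stay between -0.09 and 0.11, and the Tspo training points run from 0.06 to 0.27.

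Tspo varied from mouse to mouse within every group but 1, and all 4 groups overlapped. On 1416695_at the WTUT mice had intensities of 290.4, 271, 371, 476 and 471. The WTT mice had 502, 311, 577, 437 and 375. The TGUT mice had 269.7, 305, 338, 309 and 297, the tightest group, and the TGT mice 301, 310.2, 503, 451 and 328. In WTUT and TGT mice a pair of mice stood high, the WTT values were spread evenly, and the highest Tspo value of all came from wtt-137, the array with the most empty cells.

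Mean Tspo intensity was 376 ± 96.8 in WTUT mice, 440.4 ± 104 in WTT mice, 304 ± 24.5 in TGUT mice and 379 ± 92.1 in TGT mice (SD, n = 5 each). The order on 1416695_at was WTT, TGT, WTUT, TGUT, and no step between neighbours exceeded its spread. The log2 difference after training was 0.20 ± 0.16 in wild-type mice, 0.24 ± 0.16 in transgenic mice and 0.22 ± 0.11 averaged. The transgene averaged over training gave -0.21 ± 0.11. All of these intervals include 0. The probe set 1438948_x_at gave 0.24 ± 0.12 for training and -0.20 ± 0.12 for the transgene, both averaged. On 1456251_x_at these were 0.17 ± 0.09 and -0.21 ± 0.09, and the interval of the latter, -0.40 to -0.02, does not include 0. Nor do those for training in transgenic mice on this probe set, 0.27 with 0.0036 to 0.54, and for the transgene in untrained mice, -0.32 with -0.59 to -0.05. Its step from TGT to TGUT, 0.27, exceeded the spread of 0.22. In untrained mice, 4 of 5 wild-type animals lay above every transgenic one on 1456251_x_at.

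Adipocyte markers moved with Tspo. Of 8 listed markers 6 are on the array, 5 were tested and none was at 0. Car3, among them, is also abundant in muscle fibres. Their summed intensity ran from 10662 to 16399.7 in WTUT mice, 8690.5 to 19475 in WTT mice, 10014 to 14115 in TGUT mice and 7440.0 to 21195 in TGT mice. In 3 of the 4 groups the 2 mice with the most Tspo were the 2 with the highest adipocyte sum. Within groups, Tspo and the adipocyte score correlated over the 20 arrays with r = 0.90 and rho = 0.88, and with r = 0.88 without the 2 arrays farthest out. Adipoq, which encodes the fat-cell hormone adiponectin, ran from 62.5 to 2728 in TGT mice alone and correlated with Tspo at r = 0.91. The other markers were lower: Cidec at 0.88, Fabp4 at 0.85, Car3 at 0.61, Retn at 0.55 and Lep, which was below the filter, at 0.24.

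Macrophage markers, taken as 1 score, moved with Tspo as well, but not every marker did. All 14 listed are on the array, 10 were tested and none was at 0, with sums of 2632 to 3073 in WTUT mice, 3169.6 to 4118 in WTT mice, 2564 to 3107 in TGUT mice and 2504 to 3401 in TGT mice. The score correlated with Tspo at r = 0.79 and rho = 0.74, and at r = 0.70 without the 2 farthest arrays. Taken singly, Lyz2, Lyz1, C1qa and C1qc were at r = 0.75 to 0.80. Csf1r was at 0.01, Adgre1 at 0.17 and Cd68, which was below the filter, at -0.20. The other listed markers lay between 0.09 and 0.50. The number of empty cells per array, on a log2 scale, correlated with Tspo at r = 0.62, or 0.40 without the 2 farthest arrays. All these points share array and RNA, and the part of either cell type or of array quality in Tspo was not tested.

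With the adipocyte score as a covariate, a fit chosen after the data were seen, the averaged Tspo training difference was 0.24 ± 0.05 against 0.22 ± 0.11 without it. In transgenic mice it was 0.35 ± 0.08 against 0.24 ± 0.16, and in wild-type mice 0.13 ± 0.08 against 0.20 ± 0.16. The averaged transgene difference was -0.13 ± 0.06 against -0.21 ± 0.11. The SE of Tspo was thus smaller in each of these contrasts. With the covariate Tspo was past the threshold for training averaged over genotypes and in transgenic mice, which it was not without it. Ppif was past it in the same contrasts with and without this covariate. Over all probe sets, the fit with the covariate called 707 averaged over genotypes and 116 in transgenic mice, against 678 and 42 without it. Tspo and Ppif were both chosen on these values, so their calls are no test.

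**Figure D4:**
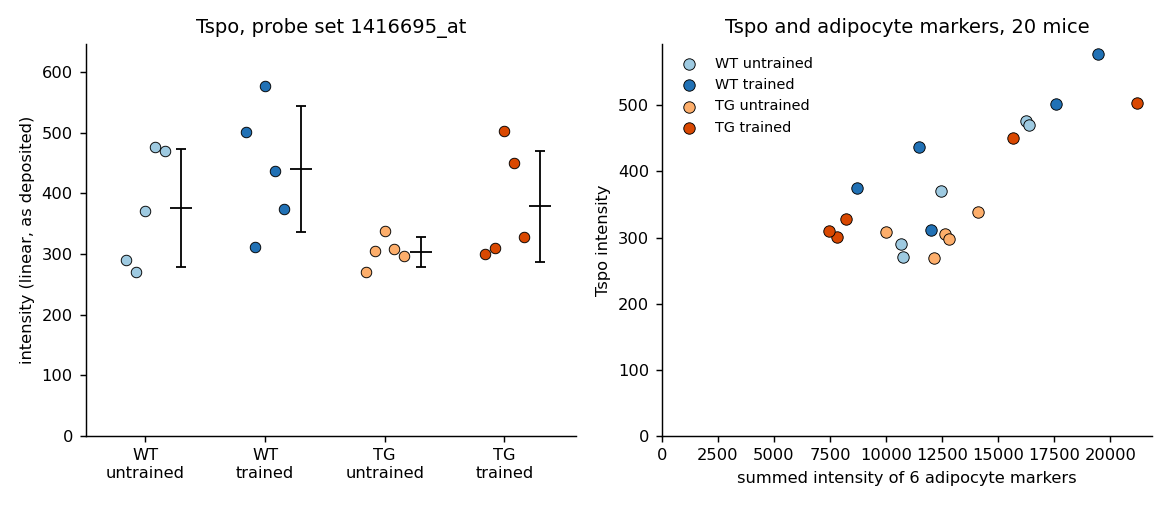
Left, Tspo intensity (linear, as deposited) of each mouse on 1416695_at by group, with mean and SD (bars, n = 5). Right, the same values against the summed intensity of 6 adipocyte markers, 1 point per mouse: mice with high sums, such as TGT-133 at 21195 and wtt-137 at 19475, are also high in Tspo, at 503 and 577.

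The members did not vary as 1 group. After group means were taken out, Ppif and Vdac3 correlated over the 20 arrays with r = 0.65 (rho = 0.73), Vdac1 and Vdac3 with r = 0.53 (rho = 0.58), and Ppif and Vdac1 with r = 0.40 (rho = 0.38). Vdac1 and Vdac2 were at r = 0.013. Tspo was at r = -0.17, -0.34 and -0.27 with Vdac1, Vdac2 and Vdac3. These are 10 pairs read from the same arrays, so array-wide differences enter all of them.

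The genes most like each member were sought among 7901 genes measured in all 20 mice, by Pearson r after group means were taken out. Closest to Ppif were Mtfp1, a mitochondrial fission protein (r = 0.90), Sdhd, a membrane subunit of succinate dehydrogenase (0.89), Dlat, the acetyltransferase of pyruvate dehydrogenase (0.89), the mitochondrial phosphatase Ptpmt1 (0.87) and Qrsl1 (0.85). Without TGT-133 and wtt-137 the same 5 genes kept their ranks. Closest to Vdac3 were Zyg11b (0.94) and the mitochondrial fusion protein Mfn2 (0.91), followed by Btbd1, Tspan3 and Ola1. Without its 2 farthest arrays, Mfn2 was at 0.81.

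Closest to Tspo were Fasn, fatty acid synthase (r = 0.96), Thrsp, a regulator of fat synthesis (0.94), the glycogen phosphorylase Pygl (0.93), and Taldo1 (0.93) and Tkt (0.92), enzymes of the pentose phosphate pathway. Fasn intensity was 1267 ± 1170 in WTUT mice (SD, n = 5), so its spread between mice was nearly as large as its mean. Closest to Vdac2 were Lrrc20, Hdlbp, Tex10, Chchd7 and Fermt2, at r = 0.90 to 0.89. Closest to Vdac1 were Gm20559, Itgb1bp2, Tmem63b, Id1 and Alad, at r = 0.81 to 0.77, and without WTT-144 and TGT-133 Itgb1bp2 was at 0.65. Unlike the Ppif list, these lists changed without TGT-133 and wtt-137. Lrrc20, Hdlbp, Tex10, Chchd7 and Fermt2 then ranked 4, 14, 2, 8 and 17 for Vdac2. Ola1 ranked 19 for Vdac3, Tkt 11 for Tspo and Alad 8 for Vdac1, while Zyg11b, Fasn and Gm20559 kept rank 1.

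Genes around the pore were read from 9 lists of 123 genes, of which 97 are on the array and 85 were tested. The lists, like the members, were chosen with earlier results of these data known. Their counts and adjusted p values are therefore a description and no independent test. Averaged over genotypes, training raised 16 and lowered 1 of the 85, beside 2.41% and 2.59% of all probe sets. The median log2 difference of the 85 was 0.07, and that of all features 0.00. In transgenic mice alone 1 of the 85 rose and none fell. The transgene averaged over training changed 0 of the 85 by limma, beside 1.23% of all probe sets. At an unadjusted limma p under 0.05 there were 22 of the 85, beside 2355 of the 13576 probe sets. The count of 17 rested in part on single arrays: it was 8 without TGT-128, 9 without WTUT-130, WTUT-135 or TGT-140, 10 without TGUT-139 and 11 without TGUT-131. In these fits the calls over all probe sets fell as well, from 678 to between 279, without TGT-128, and 421, without WTUT-130.

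ATP synthase, the enzyme that later models place at the pore, had the most members that rose, 9 of 17 tested. Atp5g1, a gene of the membrane ring's c subunit, went from 4576 ± 153 in WTUT to 5746 ± 295 in WTT mice and from 4276 ± 539 in TGUT to 5623 ± 440 in TGT mice (SD, n = 5 each). It rose by 0.36 ± 0.05 averaged over genotypes (limma adjusted p = 0.00297) and was also the 1 gene past the threshold in transgenic mice, at 0.40 ± 0.07 (limma adjusted p = 0.0355). That call in transgenic mice held in 11 of 20 leave-one-out fits, with limma adjusted p from 0.0027 to 0.129. It was lost without WTT-129, wtt-134, TGUT-131, TGUT-139, TGUT-147, TGT-128, TGT-132, TGT-140 or TGT-143, and with median centring, no filter or a fit to the 2 groups alone. Its probe set, which can bind several transcripts, was left out of the fit without such probe sets. Atp5h, a subunit of the peripheral stalk, rose by 0.21 ± 0.04 (limma adjusted p = 0.0134). All 17 subunits had differences above 0, from 0.05 to 0.36.

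The adenine nucleotide and phosphate carriers, the classical inner membrane candidates, had none of 4 tested past the threshold. Slc25a4, the carrier isoform of muscle, had intensities of 10039.5 ± 277 in WTUT, 10665 ± 378 in WTT, 10327 ± 325 in TGUT and 10833 ± 489 in TGT mice (SD, n = 5 each). Its averaged training difference was 0.08 ± 0.03 (limma adjusted p = 0.078). Slc25a5, a second isoform, was at 0.10 ± 0.10, and Slc25a3, the phosphate carrier, at 0.07 ± 0.03.

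Among the kinases known to dock on VDAC, 1 of 4 tested rose. Ckmt2, the mitochondrial creatine kinase of striated muscle, was at 6251 ± 344 in WTUT, 8254 ± 567 in WTT, 6187 ± 940.0 in TGUT and 7794 ± 634 in TGT mice (SD, n = 5 each). It rose by 0.37 ± 0.06 averaged over genotypes (limma adjusted p = 0.00503). The hexokinase Hk1 was at 0.14 ± 0.04 (limma adjusted p = 0.054), and Hk2, the insulin-responsive isoform of muscle, at 0.24 ± 0.24.

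Of the other lists, the outer membrane import pore had 2 of 10 tested genes that rose, Mtx2 by 0.22 ± 0.06 and Samm50, of the sorting machinery for barrel proteins such as VDAC, by 0.20 ± 0.05. In the calcium list 1 of 11 rose, Letm1, an inner membrane cation exchanger, by 0.35 ± 0.07 (limma adjusted p = 0.00926). Among chaperones and proteases 1 of 12 rose, Oma1, the protease that cleaves Opa1 under stress, by 0.29 ± 0.07 (limma adjusted p = 0.0201), and the chaperone Hspa9 was at 0.13 ± 0.08. Of the Bcl2 family 1 of 11 rose, Bcl2l13, by 0.18 ± 0.05. Bak1 was at -0.02 ± 0.07, Bcl2 at -0.07 ± 0.10 and Bcl2l1 at -0.07 ± 0.09.

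Among the other cyclophilins none of 8 rose and 1 fell: Ranbp2, a nuclear pore protein with a cyclophilin domain, by a log2 difference of -0.54 ± 0.13 (limma adjusted p = 0.0225). Of the Tspo partners and cholesterol import genes 1 of 8 rose, Stard3, by 0.17 ± 0.05, and Dbi, the acyl-CoA binding ligand of Tspo, was at 0.23 ± 0.12. Bax, Mcu and Ppia had no tested probe set. For training averaged over genotypes, the calls for Atp5g1, Atp5h, Ckmt2, Letm1 and Oma1 held in 20 of 20 leave-one-out fits, Ranbp2 in 19, Samm50 in 15, Mtx2 in 13, Stard3 in 9 and Bcl2l13 in 5.

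**Figure D5:**
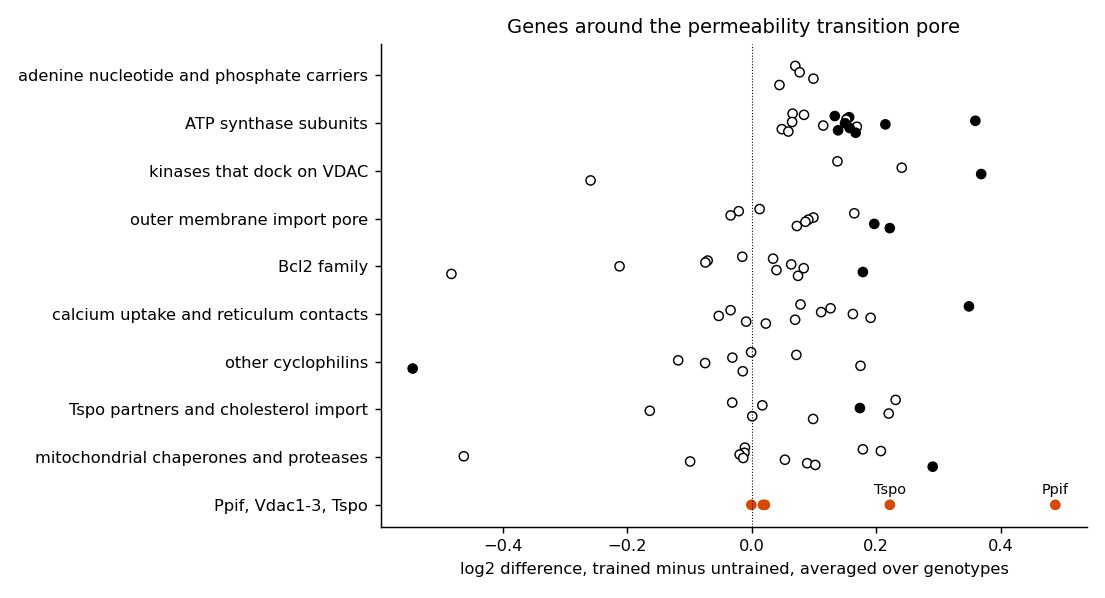
Log2 difference, trained minus untrained averaged over genotypes, of the 85 tested genes in 9 lists and of the 5 members (orange). List genes are filled when past an adjusted p of 0.05 and open when not. Lists and members were both chosen with earlier results of these data known, so both are a description. The ATP synthase subunits all lie above 0, the VDAC genes lie near 0, and Ppif, at 0.49, lies to the right of every listed gene.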

How the data were processed

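RNA from skeletal muscle of 20 mice was read on 20 Affymetrix 3' arrays. The authors deposited a linear intensity per probe set; the arrays had been scaled to each other, as read from the values, and the summary and scaling methods are not stated in the sources used here. Control probe sets (64) were left out. Values were transformed to log2(intensity + 66.7), the 20th percentile of the table, and filtered on the mean over all arrays at the 40th percentile (log2 7.59), which left 13576 of 22626. Of the 22626, 20380 carry 1 symbol, 691 several and 1555 none, and 20351 matched a RefSeq gene table. Empty cells (0.385%) were treated as missing.

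Group means were fitted with limma 3.58.1 in R 4.3.3, with a variance trend, 16 residual and 3.47 prior degrees of freedom, two-sided tests and Benjamini-Hochberg adjustment over all 13576 probe sets of each of 7 contrasts. A gene stands for its brightest tested probe set. Named genes are the 5 members, up to 2 higher and 2 lower passing genes per list, 15 genes always named, and the 5 most alike per member. Members and lists were chosen with earlier results of these data known. Tested on simulated data, the fit for training in transgenic mice recovered 44.8%, 80.4% and 96.4% of log2 shifts of 0.3, 0.5 and 1. The fit for the interaction recovered 14.8%, 54.4% and 90.4%. Whether the simulated noise matches that of the real arrays was not tested, so these rates are not the power of the real comparison. On the real arrays the fit called 42 probe sets for training in transgenic mice, 2 without TGUT-139 and 764 without TGUT-145. For arrays, their number limits the precision. Alternatives were other scalings, constants, filters, variance settings, probe sets and arrays left out. The fits with a marker score as covariate and without the 2 arrays with the most empty cells were chosen after seeing the data.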

Additional observations from a re-analysis of the deposited data

Results flagged for a closer look

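In 44 groups of 5 values, 11 member probe sets by 4 groups, 2 single mice lay far from the rest of their group by Dixon's criterion, which chance meets in about 1 of 20 groups. On Vdac1 1436992_x_at, TGUT-139 had an intensity of 5315, and the nearest mouse of its group had 5648. On Vdac1 1437947_x_at, WTT-144 had 3969.6, and the nearest had 4514.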

How the results depend on the processing

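Of 1431 values of 42 results under alternatives, 1382 moved by less than the spread between mice or, for counts, by less than 1.5 times. A further 49 moved by more and 0 reversed a call. Of the 1210 that are member differences, 73 changed sign, 65 of them of the VDAC genes, 7 of Tspo and 1 of Ppif, and none of the 73 was past the threshold. Leaving out 1 array shifts a group mean by only part of the spread between mice, so no member difference could count as moved in those fits. A lost call did not count as reversed: the Ppif difference in transgenic mice kept its call in 9 of 20 leave-one-out fits. The counts of moved and reversed values are therefore no measure of stability for the members. No paired analysis was possible because the numbers in the titles are unique to each mouse. Vdac1 moved to 0.092 (transgene averaged) and 0.15 (transgene in trained mice) with quantile normalization. On 1437192_x_at Vdac1 gave 0.026 for training in wild-type mice, 0.065 for the transgene in untrained mice and -0.010 for the interaction. With the mitochondrial score as covariate, Ppif gave 0.23 averaged and 0.47 in transgenic mice, and Vdac1 -0.030 in transgenic mice.

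For training averaged over genotypes, 17 pathway genes passed, against 8 with median centring, 35 with array weights, 10 without probe sets that can bind several transcripts, and 8 to 25 when each array was left out. In transgenic mice the count was 1, against 5 with quantile normalization, 2 with the filter at the 60th percentile or without the 2 arrays with the most empty cells, 30 with weights, and 0 with centring, no filter, no multi-transcript probe sets or only the 2 groups. Leaving out each array gave 0 to 11, the 11 without TGUT-145. For the transgene averaged over training it was 0, against 1 with centring, 5 with weights and 2 without those 2 arrays, and 0 to 1 when each array was left out. Weights gave 4 for training in wild-type mice and 5 for the transgene in trained mice, each 0 to 1 when arrays were left out. Calls over all probe sets swung too. Averaged over genotypes they were 678 in the main fit, 409 with centring, 2771 with weights and 335 without multi-transcript probe sets. In transgenic mice they were 42, 153 with quantile normalization, 2467 with weights and 764 without TGUT-145. With weights they were 662 for the transgene averaged over training, 92 for training in wild-type mice and 1016 for the transgene in trained mice. The cause was not tested. The number of mice per group and the unstated scaling limit what can be read from small differences.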
